A study of Mus musculus with 75 samples.

Results

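*Snai1*, *Snai2*, *Zeb1*, *Zeb2*, *Twist1*, *Twist2*, *Scx*, *Prrx1*, *Runx1* and *Runx2* encode transcription factors of mesenchymal cells and of epithelial-mesenchymal transition (EMT), and their expression was followed in mouse lung for 6 weeks after bleomycin (BLEO). The genes were taken by symbol, from a list drawn up with earlier results of these data known, and make up 10 of the 55536 genes in the count table. All 10 passed the filter on low counts, so each was tested on every day. *Snai1* was 1.88-fold and 1.99-fold higher than in CTRL on days 7 and 14 and was no longer past the threshold from day 35. *Prrx1*, *Runx1* and *Runx2* had their highest mean levels on day 14, which did not differ past the threshold from the next highest day. *Scx* was higher on every day from day 14 to day 42, and *Twist1* was higher on days 14 to 28. *Zeb1* was lower on all 6 days, and *Twist2* was not called on any day.

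RNA from the inferior lobe of 75 male C57BL/6JRj mice, aged 12 to 14 weeks at instillation, was sequenced with 1 library per mouse. BLEO-IPF mice had received bleomycin sulphate into the trachea at a single time, an injury to the alveolar epithelium that is followed by inflammation and fibrosis, and were killed after 7 days (n = 10), 14, 21, 28 or 35 days (n = 12 each) or 42 days (n = 7). The 10 control mice (CTRL) are labelled as given saline, although the treatment protocol calls the controls untreated. Only BLEO-IPF mice with a mild to moderate loss of weight in the week after instillation had been randomized, so the days describe a selected range of injury, and all 6 days were compared with the same 10 CTRL mice.

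EMT is the loss of junctions and polarity by which epithelial cells take on the shape and motility of mesenchymal cells. Snail (*Snai1*), Slug (*Snai2*), ZEB1 and ZEB2 are zinc finger repressors that bind E-boxes, short palindrome-like motifs, in the promoters of epithelial genes such as that of E-cadherin. Twist1, Twist2 and scleraxis (*Scx*) are basic helix-loop-helix factors that bind other E-boxes as dimers with E proteins, PRRX1 is a homeodomain factor of embryonic and fibroblastic mesenchyme, and RUNX1 and RUNX2 bind DNA with the beta subunit CBFβ and are best known from blood formation and from bone. In adult lung the same genes are also used outside EMT: *Zeb1* and *Zeb2* are expressed in stromal, endothelial or immune cells, *Runx1* in leukocytes and *Scx* in tendon-like and other matrix-producing fibroblasts.

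The upstream sequences of *Snai1* and *Runx1* are shown because these genes had all day 7 mice above all CTRL mice, and because each window holds the E-box that Snail and ZEB factors recognize. RefSeq windows on GRCm38.p6 were found for 7 of the 10 genes. Each sequence is printed 5′ to 3′ on the strand of its gene and ends just before the start of transcription or, for *Runx1*, before a more distal start in the gene annotation, which left out 75 bases. Capitals mark CAGGTG or its reverse complement CACCTG.
*Snai1*, chr2:167537945-167538194, plus strand: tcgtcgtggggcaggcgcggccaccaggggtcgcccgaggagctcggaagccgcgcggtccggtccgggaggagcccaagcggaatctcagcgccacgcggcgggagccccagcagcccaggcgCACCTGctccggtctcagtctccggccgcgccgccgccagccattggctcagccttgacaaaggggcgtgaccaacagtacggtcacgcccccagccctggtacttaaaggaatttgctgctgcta
*Runx1*, chr16:92826150-92826324, minus strand: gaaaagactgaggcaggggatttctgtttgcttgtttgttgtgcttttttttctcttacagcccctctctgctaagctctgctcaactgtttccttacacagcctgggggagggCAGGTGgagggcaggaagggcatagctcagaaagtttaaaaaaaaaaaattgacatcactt
The E-box lay 121 to 126 bases before the start in *Snai1* and 131 to 136 bases before the RefSeq start in *Runx1*. This motif, searched on both strands, was held by 17.2% of all 32851 RefSeq windows of 250 bases, so a match is common and describes letters, not a bound site.

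The windows of *Runx1* and *Runx2* were searched for the longest stretch in common. This was a stretch of 22 bases just after their RefSeq starts, within the transcribed part of both genes. It holds the RUNX motif ACCACA (reverse complement TGTGGT) at 2 places, which are in capitals.
*Runx1*, chr16:92826030-92826051, minus strand, bases 24 to 45 after the start: aaacaACCACAgaACCACAagt
*Runx2*, chr17:44814588-44814609, minus strand, bases 19 to 40 after the start: aaacaACCACAgaACCACAagt
No other of the 32851 promoters held this stretch. It describes letters, and neither binding nor a link to the levels of *Runx1* and *Runx2* was tested. Any 2 or more RUNX motifs were found in 595 promoters of 300 bases, or 1.81%. In the 250 bases before the start the RUNX motif was held by 14.0% of windows and the Twist E-box (CATCTG or CAGATG) by 14.4%.

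On GRCm38, *Snai1* lies on chromosome 2 from 167538195 to 167542814, *Zeb2* on the same chromosome from 44983632 to 45117395 and *Snai2* on chromosome 16 from 14705852 to 14709385. *Twist1* lies on chromosome 12 from 33957671 to 33959829, *Twist2* on chromosome 1 from 91801461 to 91848028, *Prrx1* on the same chromosome from 163245119 to 163313710 and *Scx* on chromosome 15 from 76457452 to 76459458. *Runx1* lies on chromosome 16 from 92601466 to 92826149, *Runx2* on chromosome 17 from 44495987 to 44814797 and *Zeb1* on chromosome 18. *Scx* lies inside *Bop1* on the opposite strand without touching its exons. Of the stretches of 75 bases, the read length, 45.3% in *Twist2* were shared with the antisense gene *Gm29100*, which had 0 to 6 counts per library, so *Twist2* counts are uncertain if strand was not used. Such sharing was 5.13% in *Runx2*, 1.49% in *Zeb2*, 1.16% in *Zeb1* and 0.263% in *Runx1*, it was 0 in the other 5 genes, and no member shared a stretch with another member.

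The libraries held 9240291 to 14665247 counts (median 10677163). Levels are given as CPM, counts scaled to a common library size and by TMM factors, and log2 fold changes (log2FC), their standard errors (SE) and adjusted p-values come from edgeR's quasi-likelihood test with Benjamini-Hochberg adjustment over 16221 genes, at a threshold of 0.05. In bulk lung, fewer cells of a type and less RNA per cell cannot be told apart. Markers of lung epithelium were abundant in every library, with a summed level of at least 8824 CPM, as fits the labelled tissue. One day 28 library, from mouse 10, stood apart: its skeletal muscle markers summed to 1353.5 CPM against at most 16.4 in any other mouse, its cardiac muscle markers to 2071 against at most 661, and its brown adipose markers to 20.6 against at most 3.84. Day 28 comparisons with CTRL whose call changes without this library are therefore given both ways, as is the number of correlated pairs. Contrasts of day 28 with other BLEO-IPF days were not refitted without it.

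**Figure D1:**
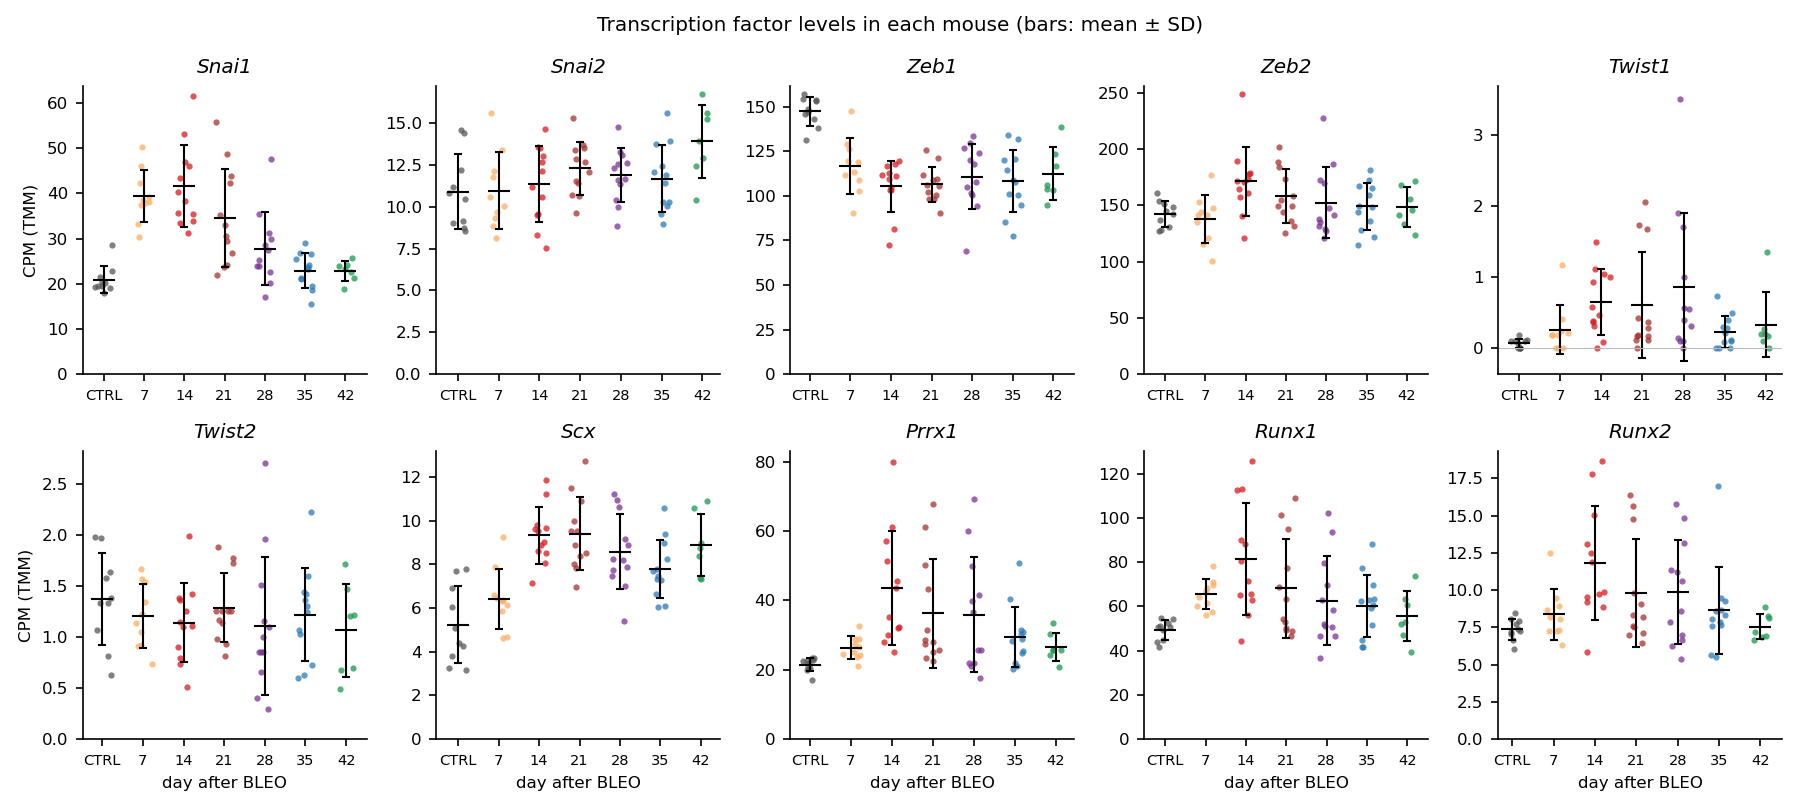
Level of each transcription factor in each of the 75 mice (points; y axis, CPM after TMM scaling; x axis, CTRL and day after BLEO), with bars for the mean and SD of a group. All *Snai1* values on days 7 and 14 lie above the 10 CTRL values, and all *Zeb1* values on days 14 and 21 lie below them, whereas *Prrx1*, *Runx1* and *Runx2* spread widely from day 14 to day 28.

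Per kilobase of exon, the unit in which genes can be set side by side, *Zeb1* (14.4 CPM per kb) and *Snai1* (12.9) were the most abundant of the 10 in CTRL lungs. They were followed by *Zeb2* (7.14), *Snai2* (5.39), *Runx1* (4.10), *Scx* (2.61), *Prrx1* (1.94) and *Runx2* (0.834). *Twist2* (0.433) and *Twist1* (0.039) were close to the limit of detection. These levels use the length of all annotated exons and so understate genes, such as *Zeb2*, with long rarely used ones.

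Among the Snail factors, *Snai1* rose early and returned. *Snai1* ranged from 17.9 to 28.5 CPM (median 19.9) in CTRL, on day 7 from 30.3 to 50.2 (median 38.3), and by day 14 from 31.3 to 61.4 (median 39.3). All 22 mice of days 7 and 14 were therefore above the highest CTRL mouse. The ranges then overlapped CTRL, with 21.9 to 55.8 CPM (median 31.8) on day 21, 17.0 to 47.6 (median 26.4) on day 28, 15.4 to 29.02 (median 23.5) on day 35 and 18.8 to 25.7 (median 23.2) on day 42. The mean was 20.9 ± 2.99 CPM (SD, n = 10) in CTRL, 39.3 ± 5.76 (n = 10) on day 7 and 41.6 ± 9.02 (n = 12) on day 14. Compared to CTRL, *Snai1* rose 1.88-fold on day 7 (log2FC 0.91, SE 0.14, adjusted p = 1.05e-07) and 1.99-fold on day 14 (log2FC 0.99, SE 0.13, adjusted p = 1.48e-09). It was 1.65-fold higher on day 21 (adjusted p = 3.75e-06) and 1.33-fold higher on day 28 (adjusted p = 0.00855). On days 35 and 42 its log2FC was 0.13 on both days (adjusted p = 0.484 and 0.573). The decline was itself past the threshold, since *Snai1* was lower than on day 14 already on day 28 (log2FC -0.58, adjusted p = 0.000563), and again on day 35 (-0.86, adjusted p = 1.09e-07) and day 42 (-0.87, SE 0.15, adjusted p = 5.8e-06). No day 35 or day 42 mouse reached the lowest day 14 mouse. The share of all genes with such a separation from day 14 was not computed, while 23.1% and 18.8% of all genes were called lower than on day 14.

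*Snai2*, which encodes Slug, was not called against CTRL from day 7 to day 35. It lay between 8.55 and 14.5 CPM (median 10.6) in CTRL, between 7.56 and 14.7 (median 11.6) on day 14 and between 10.4 and 16.7 (median 13.9) on day 42, so every group overlapped CTRL. On days 7, 21, 28 and 35 the medians were 10.3, 12.4, 12.0 and 11.6 CPM. The log2FC compared to CTRL was 0.00, 0.06, 0.17, 0.12 and 0.10 from day 7 to day 35, none past the threshold. On day 42 *Snai2* was higher than in CTRL (log2FC 0.35, SE 0.12, adjusted p = 0.027) and higher than on day 14 (log2FC 0.29, SE 0.12, adjusted p = 0.0432). Both calls were fragile: the increase over CTRL was lost without any of 7 mice (day 42 mice 2, 3 and 5 and CTRL mice 3, 8, 9 and 10, adjusted p up to 0.0764) and that over day 14 without any of 10 mice (day 14 mice 1, 2, 3, 4, 8 and 11 and day 42 mice 2, 3, 4 and 5, adjusted p up to 0.123).

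*Zeb1* was the only member that fell, and it stayed lower throughout. Its level was 132 to 157 CPM (median 148) in CTRL, 90.3 to 147 (median 116) on day 7, 72.2 to 119 (median 110) on day 14 and 90.4 to 126 (median 106) on day 21. It was 68.99 to 134 CPM (median 113) on day 28, 77.5 to 134 (median 108) on day 35 and 94.7 to 139 (median 106) on day 42. No mouse of day 14 or day 21 reached the lowest CTRL mouse, and of the other days 9 of 10, 11 of 12, 10 of 12 and 6 of 7 mice lay below all CTRL mice. The mean went from 147 ± 8.00 CPM (SD, n = 10) in CTRL to 105 ± 14.5 (n = 12) on day 14 and was 112 ± 14.9 (n = 7) on day 42. *Zeb1* fell by 0.33 on the log2 scale on day 7 (SE 0.09, adjusted p = 0.00109), by 0.48 on day 14 (SE 0.08, adjusted p = 7.75e-07) and by 0.39 on day 42 (SE 0.10, adjusted p = 0.00179). On days 21, 28 and 35 the log2FC was -0.47, -0.41 and -0.45 (adjusted p = 2.45e-06, 4.91e-05 and 1.96e-05), and no pair of BLEO-IPF days differed past the threshold. Endothelial markers moved the same way: 6 of 8 were lower and 1 was higher on day 14, against 29.9% and 32.4% of all genes. Their summed level was 4052 to 5541 CPM (median 4478) in CTRL and 2712 to 4451 (median 3752) on day 14. The summed fibroblast markers were 2082 to 2331 CPM (median 2184) in CTRL and 1802 to 2313 (median 2097) on day 14. The part of these cell types in the *Zeb1* level was not tested.

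*Zeb2* passed the threshold on day 14. It ranged from 127 to 161 CPM (median 143) in CTRL, on day 7 from 101 to 177 (median 141), and by day 14 from 121 to 248 (median 171), so the day 14 mice overlapped CTRL. Medians from day 21 to day 42 lay between 140 and 152 CPM. On day 14 *Zeb2* was higher than in CTRL (log2FC 0.27, SE 0.09, adjusted p = 0.0108) and higher than on day 7 (log2FC 0.31, SE 0.09, adjusted p = 0.0132), when its log2FC was -0.05. From day 21 to day 42 the log2FC was 0.15, 0.10, 0.07 and 0.06, none past the threshold. Reads of the antisense gene *Zeb2os* were 19 to 92 per library.

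Among the basic helix-loop-helix factors, *Twist1* was near the limit of detection in CTRL lungs. The 10 CTRL libraries held 0 to 2 *Twist1* counts, 7 in all, and 4 of them held 0. On day 14 the 12 libraries held 0 to 15 counts, 86 in all, and on day 28 0 to 35 counts, 104 in all. In CPM, the range was 0 to 0.186 (median 0.0784) in CTRL, 0 to 1.17 (median 0.185) on day 7, 0 to 1.49 (median 0.514) on day 14, 0 to 2.06 (median 0.224) on day 21 and 0 to 3.51 (median 0.467) on day 28. It was 0 to 0.728 (median 0.157) on day 35 and 0 to 1.35 (median 0.187) on day 42, so every day had mice without a *Twist1* read beside mice well above CTRL. *Twist1* was higher on day 14 (log2FC 3.13, SE 0.81, adjusted p = 0.00066), day 21 (3.01, SE 0.82, adjusted p = 0.00146) and day 28 (3.52, SE 0.79, adjusted p = 0.000232), with fitted sizes that rest on the 7 CTRL counts. The log2FC was 1.88 on day 7, 1.65 on day 35 and 2.15 on day 42 (adjusted p = 0.0918, 0.179 and 0.0993). In edgeR fits of only the 2 groups these 3 days were called (adjusted p = 0.0297, 0.0444 and 0.0234), and DESeq2 called day 7 and day 42 (adjusted p = 0.048 and 0.0492). The muscle-bearing day 28 library had the highest *Twist1* of all mice, and without it the day 28 log2FC was 3.05 (adjusted p = 0.00142). Day 35 was lower than day 14 (log2FC -1.47, adjusted p = 0.0484).

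*Twist2*, also known as Dermo1, ranged from 0.626 to 1.99 CPM (median 1.36) in CTRL and had medians of 1.18, 1.13, 1.26, 0.929, 1.28 and 1.21 CPM from day 7 through day 42. All groups overlapped CTRL at 3 to 27 counts per library. Its log2FC lay between -0.35 and -0.09 and never passed the threshold, and the widest 95% interval, that of day 42, ran from -0.89 to 0.20. The highest *Twist2* of day 28, 2.71 CPM, was that of mouse 10, and without this mouse the day 28 log2FC was -0.50 (adjusted p = 0.0699).

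*Scx*, which encodes scleraxis, was higher on every day from day 14 to day 42. Its level was 3.15 to 7.79 CPM (median 4.74) in CTRL, 4.61 to 9.25 (median 6.35) on day 7 and 7.14 to 11.8 (median 9.27) on day 14. It was 6.95 to 12.7 CPM (median 9.20) on day 21, 5.41 to 11.2 (median 8.23) on day 28, 6.05 to 10.6 (median 7.58) on day 35 and 7.33 to 10.9 (median 8.73) on day 42. The upper CTRL mice overlapped each day, although all later medians lay near or above the highest of them. The mean was 5.24 ± 1.76 CPM (SD, n = 10) in CTRL, 9.33 ± 1.29 (n = 12) on day 14 and 8.90 ± 1.41 (n = 7) on day 42. *Scx* was higher on day 14 (log2FC 0.83, SE 0.13, adjusted p = 8.3e-08), day 21 (0.84, adjusted p = 9.67e-08), day 28 (0.71, adjusted p = 8.88e-06), day 35 (0.57, adjusted p = 0.000368) and day 42 (0.76, SE 0.14, adjusted p = 5.64e-05). Day 14 also exceeded day 7 (log2FC 0.54, adjusted p = 0.00181). On day 7 the log2FC was 0.29 (SE 0.13, adjusted p = 0.0697), and it passed the threshold without any of 4 mice (CTRL mice 1, 2 and 6 and day 7 mouse 4, adjusted p down to 0.0198).

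*Prrx1* had its highest mean level on day 14. It ranged from 17.2 to 23.4 CPM (median 22.1) in CTRL, on day 7 from 21.2 to 32.8 (median 25.9), and by day 14 from 25.1 to 80.0 (median 39.5), when no mouse overlapped CTRL. It ranged from 22.6 to 67.9 CPM (median 28.4) on day 21, 17.6 to 69.2 (median 31.2) on day 28, 20.3 to 50.7 (median 28.6) on day 35 and 20.8 to 33.5 (median 25.7) on day 42. From day 21 on, some mice lay within the CTRL range and others far above it. The mean was 21.5 ± 1.93 CPM (SD, n = 10) in CTRL and 43.5 ± 16.4 (n = 12) on day 14. *Prrx1* was higher on day 14 (log2FC 1.02, SE 0.19, adjusted p = 6.22e-06), day 21 (0.75, adjusted p = 0.000722) and day 28 (0.74, adjusted p = 0.00128). On days 7, 35 and 42 the log2FC was 0.29, 0.46 and 0.31 (adjusted p = 0.229, 0.061 and 0.319), and day 35 passed without day 35 mouse 4 or 11 (adjusted p = 0.0439 and 0.0422). On these 3 days 9 of 10, 9 of 12 and 6 of 7 mice lay above all CTRL mice, and *Prrx1* was called in edgeR fits of only the 2 groups (adjusted p = 0.0019, 0.00469 and 0.00619), and on day 35 also by DESeq2 (adjusted p = 0.0482) and with library size as the scaling (adjusted p = 0.0488). Day 14 was above day 7 (log2FC 0.72, adjusted p = 0.00538), and both day 35 (-0.56, adjusted p = 0.0097) and day 42 (-0.71, adjusted p = 0.00745) were below day 14.

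The RUNX genes also had their highest mean levels on day 14. *Runx1* ranged from 41.5 to 54.9 CPM (median 50.6) in CTRL, on day 7 from 56.3 to 78.2 (median 65.6), and by day 14 from 44.1 to 126 (median 75.9). All 10 day 7 mice were above all CTRL mice, as were 11 of 12 on day 14, when mouse 11 lay within the CTRL range and mouse 1 had the highest *Runx1* of the study. Its medians were 58.98, 55.2, 61.5 and 53.1 CPM on days 21, 28, 35 and 42. *Runx1* was higher on day 7 (log2FC 0.41, SE 0.16, adjusted p = 0.0295), day 14 (0.72, SE 0.15, adjusted p = 4.05e-05) and day 21 (0.46, adjusted p = 0.00801). The day 7 call was lost without day 7 mouse 2 (adjusted p = 0.067). On day 28 the log2FC was 0.34 (adjusted p = 0.0617), and *Runx1* passed the threshold without day 28 mouse 3, 7 or 10 (adjusted p = 0.0484, 0.0428 and 0.0291), the last being the muscle-bearing library. On days 35 and 42 the log2FC was 0.29 and 0.17 (adjusted p = 0.148 and 0.504). In edgeR fits of only the 2 groups *Runx1* was called on days 28 and 35 (adjusted p = 0.0476 and 0.0365). The same 2 days were called by edgeR with replicate number added to the fit (adjusted p = 0.0142 and 0.0416). Compared to day 14, *Runx1* was lower on day 28 (log2FC -0.38, adjusted p = 0.0439) and on day 42 (-0.55, adjusted p = 0.00922). The contrast of days 28 and 14 was not refitted without mouse 10, which had the lowest *Runx1* of day 28 (36.8 CPM, others at least 46.8).

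*Runx2* was expressed at a lower level, 6.04 to 8.45 CPM (median 7.34) in CTRL, 6.33 to 12.5 (median 8.13) on day 7 and 5.83 to 18.7 (median 10.9) on day 14. The upper day 14 mice exceeded CTRL and the lowest did not, so the groups overlapped. Medians were 8.25, 9.60, 8.21 and 7.22 CPM on days 21, 28, 35 and 42. *Runx2* was higher on day 14 (log2FC 0.68, SE 0.17, adjusted p = 0.000439), and narrowly so on day 21 (0.41, adjusted p = 0.0377) and on day 28 (0.42, adjusted p = 0.0393). The day 21 call was lost without any of 8 mice (CTRL mice 1, 2, 8 and 10 and day 21 mice 3, 5, 7 and 10, adjusted p up to 0.122) and the day 28 call without any of 11 mice (CTRL mice 1, 2, 7, 8 and 10 and day 28 mice 1, 2, 4, 5, 6 and 9, adjusted p up to 0.104). Without the filter on low counts the adjusted p was 0.0678 and 0.072 on these days. On days 7, 35 and 42 the log2FC was 0.19, 0.23 and 0.03 (adjusted p = 0.406, 0.336 and 0.922). Day 14 was above day 7 (log2FC 0.50, adjusted p = 0.0328), which was lost without any of 6 mice (day 14 mice 1, 2 and 8 and day 7 mice 3, 6 and 7, adjusted p up to 0.0865), without the filter (adjusted p = 0.0614) and with library size as the scaling (adjusted p = 0.0538), and day 42 was below day 14 (log2FC -0.65, adjusted p = 0.00645).

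**Figure D2:**
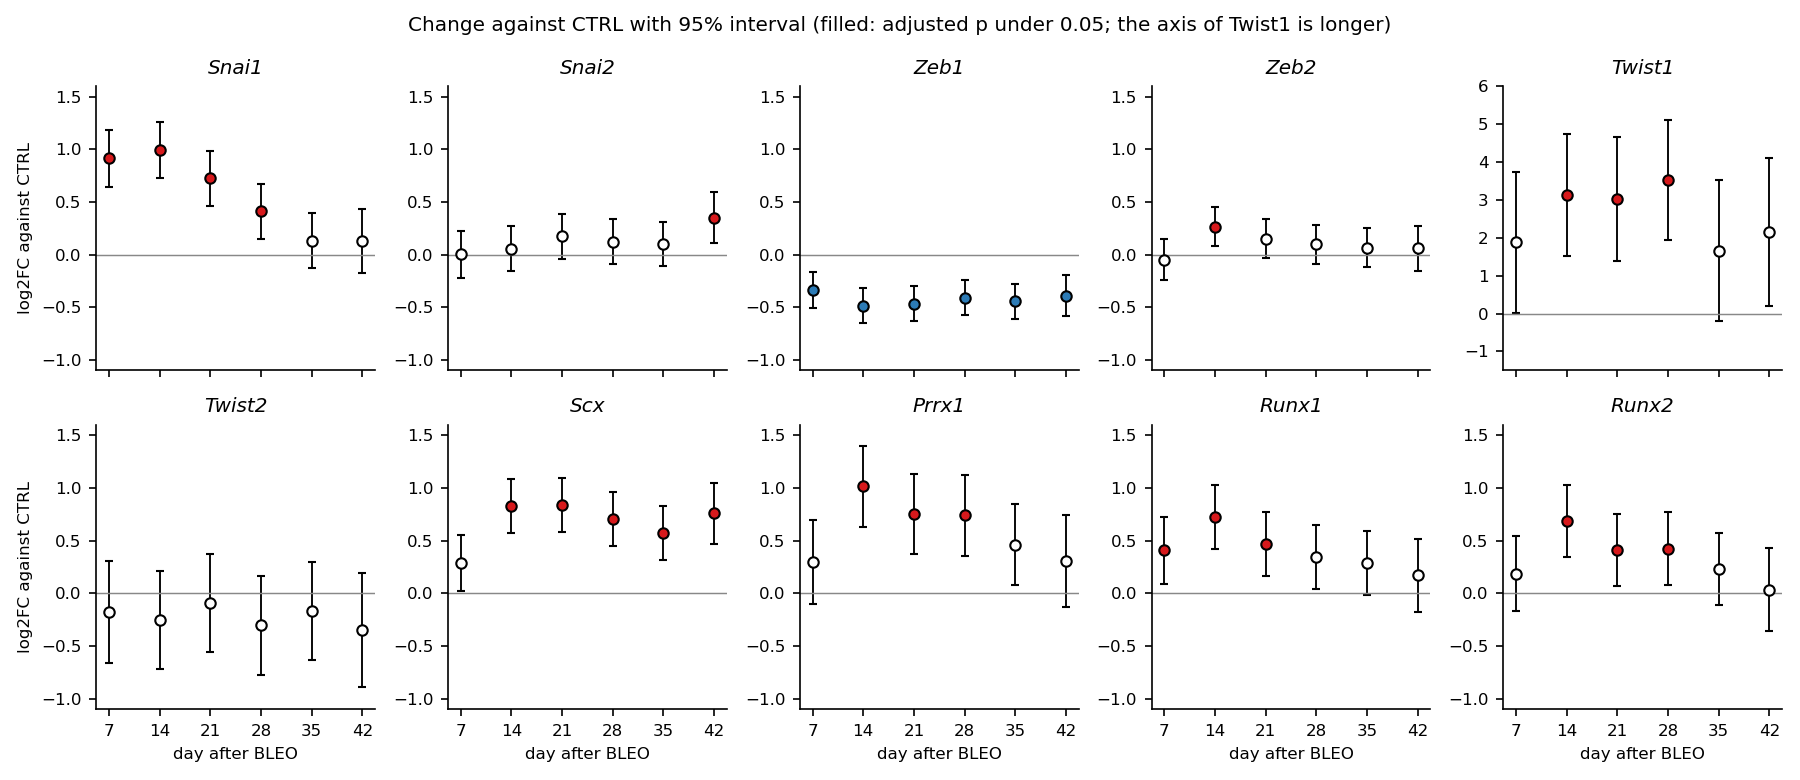
Log2FC of each transcription factor compared to CTRL by day after BLEO, with 95% intervals (filled points, adjusted p under 0.05; the y axis of *Twist1* is longer). *Snai1* starts near 0.91 and 0.99 and ends at 0.13, *Scx* stays between 0.57 and 0.84 from day 14, and *Zeb1* lies between -0.48 and -0.33 on all days.

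Counted by day, 2 of the 10 factors were higher and 1 was lower on day 7, where 24.8% of all genes tested were higher and 21% were lower. On day 14, 7 were higher and 1 was lower, against 32.4% and 29.9% of all genes, and the median log2FC of the 10 factors was 0.70 against 0.0079 over all genes. On day 21, 6 were higher and 1 was lower (28.3% and 25.8% of all genes), and on day 28, 5 and 1 (24.1% and 19.2%). On day 35 only *Scx* was higher and *Zeb1* lower (16.9% and 13.1% of all genes), and on day 42 *Snai2* and *Scx* were higher and *Zeb1* lower (13.7% and 11%). Shares of 1 or 2 in 10 on days 7, 35 and 42 are thus close to those of all genes. Complete separation from CTRL was seen upward in *Snai1* and *Runx1* on day 7 (7.39% of all genes) and in *Snai1* and *Prrx1* on day 14 (9.46%), and downward in *Zeb1* on day 14 (6.15%) and day 21 (4.85%).

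Several factors also differed between BLEO-IPF days. From day 7 to day 14 *Zeb2*, *Scx*, *Prrx1* and *Runx2* rose, 4 of 10 where 9.48% of all genes were higher, and *Twist1* (log2FC 1.25, adjusted p = 0.174) joined them without day 7 mouse 8 (adjusted p = 0.0431). Compared to day 14, *Snai1*, *Twist1*, *Prrx1*, *Runx1* and *Runx2* were lower on day 35 (23.1% of all genes were lower), and *Snai1*, *Prrx1*, *Runx1* and *Runx2* were lower and *Snai2* higher on day 42 (18.8% and 15.2%). Compared to day 7, *Scx* was also higher on days 21, 28 and 42 and *Snai2* on day 42, while *Snai1* was lower on days 28, 35 and 42, and *Snai1* was lower on days 35 and 42 than on day 21. Between neighbouring later days no factor passed edgeR's threshold on the adjusted p, which 1.03% of all genes passed in either direction between days 14 and 21, 0.727% between days 21 and 28, 1.27% between days 28 and 35 and 0% between days 35 and 42. At the looser bound of an unadjusted p under 0.05, for which no share of all genes was computed, there was 1 factor (*Snai1*) between days 14 and 21 and between days 21 and 28, there were 2 (*Snai1* and *Twist1*) between days 28 and 35, and 1 (*Snai2*) between days 35 and 42. Ordered by level, neighbouring groups of a factor therefore did not differ past the threshold, with 1 exception, *Zeb1* in CTRL and on day 7.

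Mice of the same day differed widely in several factors, and these differences were shared between genes. Correlations were computed on log2 CPM (prior count 2) over the 75 mice after each group's mean had been subtracted, with permutations of mice within groups. Of 45 pairs, 22 had an adjusted p under 0.05, 15 positive and 7 negative, and 21 of them were also called by rank. The median r of the 45 pairs was 0.034. How many pairs of any other expressed genes would be called was not computed, so the count is not a result particular to these factors. The strongest was *Runx1* with *Runx2* (Pearson r = 0.85, Spearman rho = 0.83, permutation p = 1e-05 and adjusted p = 5e-05 for both), and r was 0.83 without the 2 mice farthest from the median and 0.39 to 0.93 within the 7 groups. The permutation p of 1e-05 is the smallest that 100000 resamples can give. *Prrx1* correlated with *Runx1* (r = 0.81, rho = 0.77, without 2 mice 0.79) and with *Runx2* (r = 0.81, rho = 0.71, without 2 mice 0.78), each at the same permutation p and adjusted p. *Twist1* joined them despite its low counts, with r = 0.76 to *Prrx1* (rho = 0.73, without 2 mice 0.76, same permutation p).

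*Zeb2* correlated with *Prrx1*, *Runx1* and *Runx2* (r = 0.65, 0.67 and 0.68), with r above 0 in all 7 groups. *Snai1* did so less closely (r = 0.52, 0.49 and 0.43) and unevenly, with r above 0 in 5, 4 and 3 of the 7 groups. Within groups its r ran from -0.72 to 0.80 with *Prrx1*, from -0.33 to 0.85 with *Runx1* and from -0.34 to 0.85 with *Runx2*. *Zeb1* ran opposite to *Prrx1* (r = -0.43, rho = -0.43, permutation p = 0.00045 and 0.00032, adjusted p = 0.00145 and 0.00131), and likewise to *Runx1* (r = -0.37), *Runx2* (r = -0.35) and *Twist1* (r = -0.33). *Scx*, although higher on the same days, was not positively tied to this group, with r = -0.38 to *Zeb2* (rho = -0.40, permutation p = 0.00043 and 0.00042, adjusted p = 0.00145 and 0.00158) and r = -0.28 to both *Runx1* and *Runx2*. *Snai2* and *Twist2* had no pair past the threshold over all mice. Without the muscle-bearing day 28 library 23 pairs were called, the added pair being *Snai1* with *Snai2* (r = -0.26, permutation p = 0.0196, adjusted p = 0.0401).

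**Figure D3:**
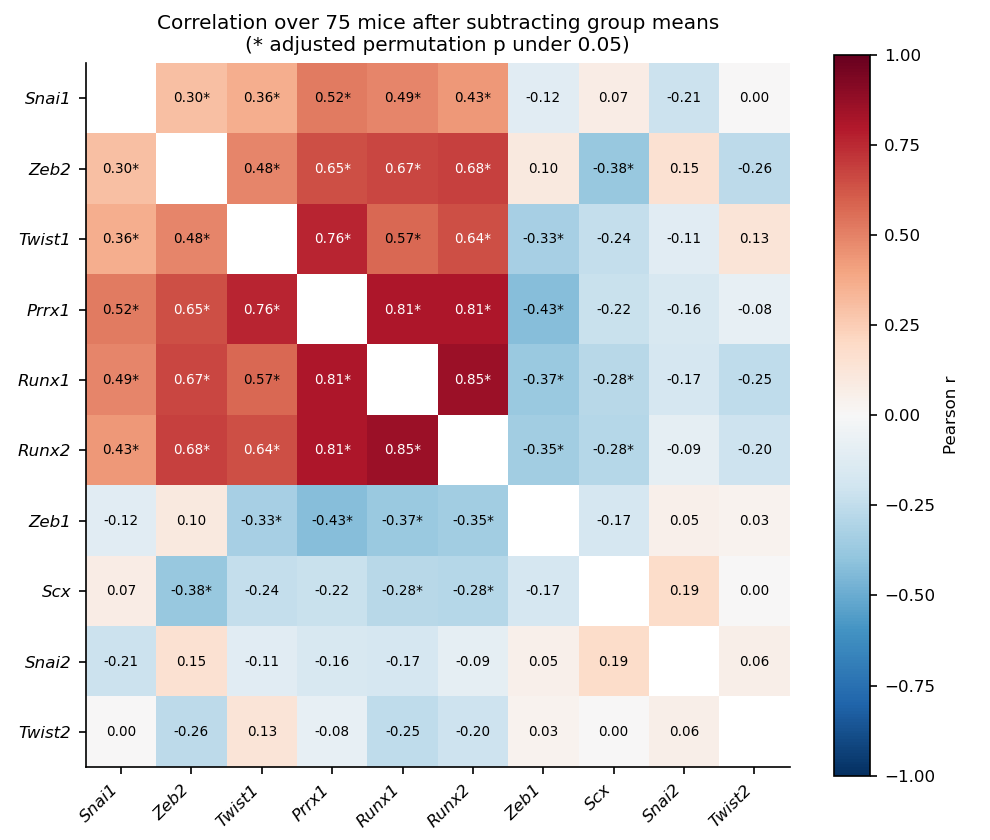
Pearson r between the 10 transcription factors over 75 mice after subtraction of group means of log2 CPM (asterisk, adjusted permutation p under 0.05). *Prrx1*, *Runx1*, *Runx2*, *Twist1* and *Zeb2* form a block of positive values up to 0.85, and *Zeb1* and *Scx* have negative values with several of them.

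Among 13063 expressed genes, those most like each factor across mice were found by the same within-group Pearson r, given here as a description over 75 mice that share libraries. *Prrx1* was most like *Inhba*, the activin A subunit (r = 0.90), *Pcdh7* (0.90) and *Dpy19l1* (0.89), and *Twist1* also had *Inhba* (0.73) and *Dpy19l1* (0.70) among its nearest 3, beside *Tpm1* (0.71). *Runx1* was nearest to *Itgav*, the integrin αv chain (0.88), *Zfp469* (0.87) and *Bmp2k* (0.86), and *Runx2* to *Pcdh7* (0.86), *Hif1a* (0.82) and *Itgav* (0.82). *Zeb2* also had *Itgav* (0.81), after *Rps6ka3* (0.84) and before *Tnpo1* (0.80). *Zeb1* was nearest to *Arhgap29* (0.87), *Epb41l2* (0.87) and *Phactr2* (0.86), and *Snai1* to *Sh3gl1* (0.77), the tubulin gene *Tubb6* (0.76) and the collagen prolyl hydroxylase gene *P3h1* (0.76). The nearest genes of *Scx* (*Myl6*, *Hax1* and *Dynll1*, 0.58 to 0.61), *Twist2* (*Bin1*, *Fxyd1* and *Rbm38*, 0.59 to 0.67) and *Snai2* (*Rap2a*, *Rbm12b2* and *Trim12c*, 0.52 to 0.56) were less close.

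Markers of several cell types moved across mice with the same factors. Of 150 correlations between the 10 factors and 15 summed marker lists, 69 had an adjusted p under 0.05. The share for other genes was not computed. *Prrx1* went with macrophage and monocyte markers (r = 0.81, rho = 0.79, without 2 mice 0.78, 0.27 to 0.92 within the 7 groups, permutation p = 1e-05, adjusted p = 6.52e-05) and ran opposite to lung epithelial markers (r = -0.84, rho = -0.79, without 2 mice -0.83, -0.93 to 0.02 within the 7 groups, same permutation p). The same held for *Runx1* (r = 0.80 and -0.76) and *Runx2* (r = 0.77 and -0.82). Against fibroblast markers, *Prrx1* had r = -0.55 (rho = -0.57, permutation p = 8e-05, adjusted p = 0.000375). *Zeb1* went with endothelial markers (r = 0.74, rho = 0.64, without 2 mice 0.67, permutation p = 1e-05) and fibroblast markers (r = 0.51) and against leukocyte markers (r = -0.65). *Snai1* went with smooth muscle and pericyte markers (r = 0.62, rho = 0.58, without 2 mice 0.61, permutation p = 1e-05), as did *Prrx1* (r = 0.63), *Runx1* (r = 0.60) and *Runx2* (r = 0.60). To lung epithelial markers *Snai1* had r = -0.58, from -0.84 to 0.01 within the 7 groups. To macrophage and monocyte markers its r was 0.49, but r was above 0 in only 3 of the 7 groups (-0.24 to 0.83). *Twist2* went with brown adipose markers (r = 0.59, rho = 0.47, without 2 mice 0.45), cardiac muscle markers (r = 0.44) and skeletal muscle markers (r = 0.47). Its r was above 0 in all 7 groups for brown adipose and cardiac muscle and in 6 for skeletal muscle. *Scx* ran opposite to both muscle lists (r = -0.29 each). The part of such tissue in these levels was not tested.

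These marker lists also differed between the groups. All 8 macrophage and monocyte markers were higher on day 14, and their summed level went from 357 to 426 CPM (median 386) in CTRL to 751 to 1790 (median 1116) on day 14. Of 8 lung epithelial markers 7 were lower, with sums of 40521 to 51492 CPM (median 46873) in CTRL and 8824 to 37920 (median 18946) on day 14. All 6 markers of cycling cells were higher on day 14. Of the 10 fibroblast markers 4 were higher and 3 lower, and of the 9 smooth muscle and pericyte markers also 4 and 3, which is near the 32.4% and 29.9% of all genes. None of the markers in these 5 lists was limited to 3 or fewer counts. The part of these cell types in the levels of *Prrx1*, *Runx1*, *Runx2*, *Twist1* and *Zeb2* was not tested.

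**Figure D4:**
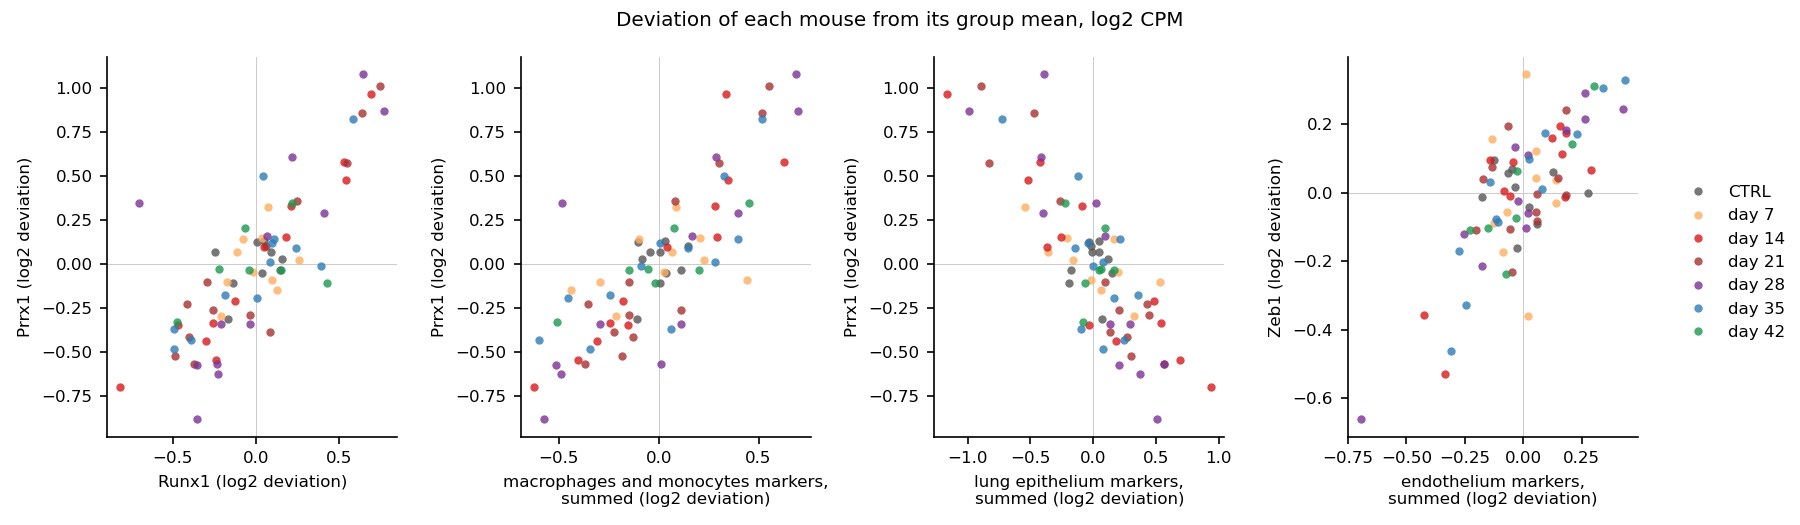
Deviation of each mouse from the mean of its group in log2 CPM (axes in log2 units, points coloured by group) for *Prrx1* against *Runx1*, against summed macrophage and monocyte markers and against summed lung epithelial markers, and for *Zeb1* against summed endothelial markers. The points follow r = 0.81, 0.81, -0.84 and 0.74 over the 75 mice.

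Of 15 partners and cofactors of these proteins, 5 were higher and 1 was lower on day 14, with a median log2FC of 0.02 against 0.0079 over all genes, and 1 was higher and 1 lower on day 42. The share of higher ones on day 14 is close to the 32.4% of all genes. *Cbfb*, which encodes the beta subunit CBFβ shared by the RUNX proteins, rose from 66.5 ± 3.12 CPM (SD, n = 10) in CTRL to 92.2 ± 14.4 (n = 12) on day 14 (log2FC 0.47, SE 0.08, adjusted p = 5.09e-07), and *Runx3* rose as well (0.59, SE 0.17, adjusted p = 0.00191). *Id4*, a helix-loop-helix inhibitor of E proteins, fell by 0.46 on the log2 scale (SE 0.12, adjusted p = 0.000599).

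Of 11 epithelial transcription and splicing factors 8 were lower on day 14 (median log2FC -0.77), 8 were lower on day 21 and 1 on day 42, and from day 14 to day 42 9 of the 11 rose. Of all genes, 29.9%, 25.8% and 11% were lower on days 14, 21 and 42, and 15.2% were higher on day 42 than on day 14. The 1 lower factor on day 42 is thus close to the share of all genes. *Foxa1*, a pioneer factor of lung endoderm, went from 48.1 ± 2.58 CPM in CTRL to 21.0 ± 6.95 on day 14 (log2FC -1.19, SE 0.13, adjusted p = 3.04e-12), and *Ovol1*, a repressor of *Zeb1* in epithelia, fell by 1.08 (SE 0.26, adjusted p = 0.000266). Of 18 junction and adhesion genes, 5 were higher and 9 lower on day 14 (32.4% and 29.9% of all genes), and 6 were higher on day 42 (13.7% of all genes). *Cldn4*, a claudin of injured epithelium, rose from 6.11 ± 1.26 to 56.6 ± 27.2 CPM (log2FC 3.21, SE 0.35, adjusted p = 4.85e-12) and *Krt18* rose (0.60, adjusted p = 2.12e-06), while *Ocln* (-0.52, adjusted p = 7.76e-06) and *Cldn3* (-0.51, adjusted p = 0.000482) fell.

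Mesenchymal genes commonly read as EMT targets were higher in most cases. Of 14 tested, 10, 12, 13, 12, 9 and 6 were higher on the 6 days in order, with a median log2FC of 1.89 on day 14 and 0.69 on day 42, and 12 of the 14 fell from day 14 to day 42. Of all genes, 24.8%, 32.4%, 28.3%, 24.1%, 16.9% and 13.7% were higher on these days, and 18.8% were lower on day 42 than on day 14. *Tnc* (tenascin C) rose from 27.2 ± 8.98 to 465.8 ± 254 CPM on day 14 (log2FC 4.10, SE 0.40, adjusted p = 1.27e-13), and *Fn1* (fibronectin) rose with it (3.32, SE 0.36, adjusted p = 2.44e-12). *Cdh2*, which encodes N-cadherin and is often paired with loss of E-cadherin in EMT, fell instead (log2FC -0.40, SE 0.14, adjusted p = 0.0115).

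Of 28 other mesenchymal transcription factors 24 were tested, and 8 were higher and 8 lower on day 14, shares close to the 32.4% and 29.9% of all genes. On day 42, 3 were higher and 6 lower (13.7% and 11% of all genes). *Prrx2*, the paralog of *Prrx1*, rose from 0.595 ± 0.324 to 4.68 ± 1.79 CPM on day 14 (log2FC 2.93, SE 0.33, adjusted p = 8.09e-12) and *Sox9*, a cartilage and airway progenitor factor, rose at a low level (1.85, adjusted p = 0.000459). *Tcf21*, a marker factor of resident lung fibroblasts, fell from 117 ± 16.9 to 59.4 ± 20.1 CPM (log2FC -0.98, SE 0.18, adjusted p = 3.09e-06).

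Genes linked to RUNX2 in bone were tested for 8 of 12, with 6 higher and 1 lower on day 14 and 4 higher on day 42, while 3 of the 12 never exceeded 3 counts. Of all genes, 32.4% were higher and 29.9% lower on day 14, and 13.7% were higher on day 42. *Spp1* (osteopontin), which macrophages also express, rose from 69.4 ± 31.7 to 3413 ± 2483 CPM on day 14 (log2FC 5.62, SE 0.55, adjusted p = 7.36e-14) and *Bmp2* fell (-0.52, adjusted p = 0.000334). *Col10a1*, a cartilage collagen gene, had 0 counts in all CTRL mice and 0.807 ± 0.380 CPM on day 14. Of 9 tested tendon-associated genes, 7 were higher on day 14 and 3 were higher on day 42 (32.4% and 13.7% of all genes). *Thbs4* rose from 0.388 ± 0.197 to 58.6 ± 25.2 CPM (log2FC 7.23, SE 0.69, adjusted p = 4.82e-14) and *Col1a1* from 331 ± 72.7 to 2472 ± 1163 CPM (2.90, SE 0.33, adjusted p = 2.36e-11), but unlike *Scx*, *Col1a1* was not called on day 42 (0.70, adjusted p = 0.133).

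**Figure D5:**
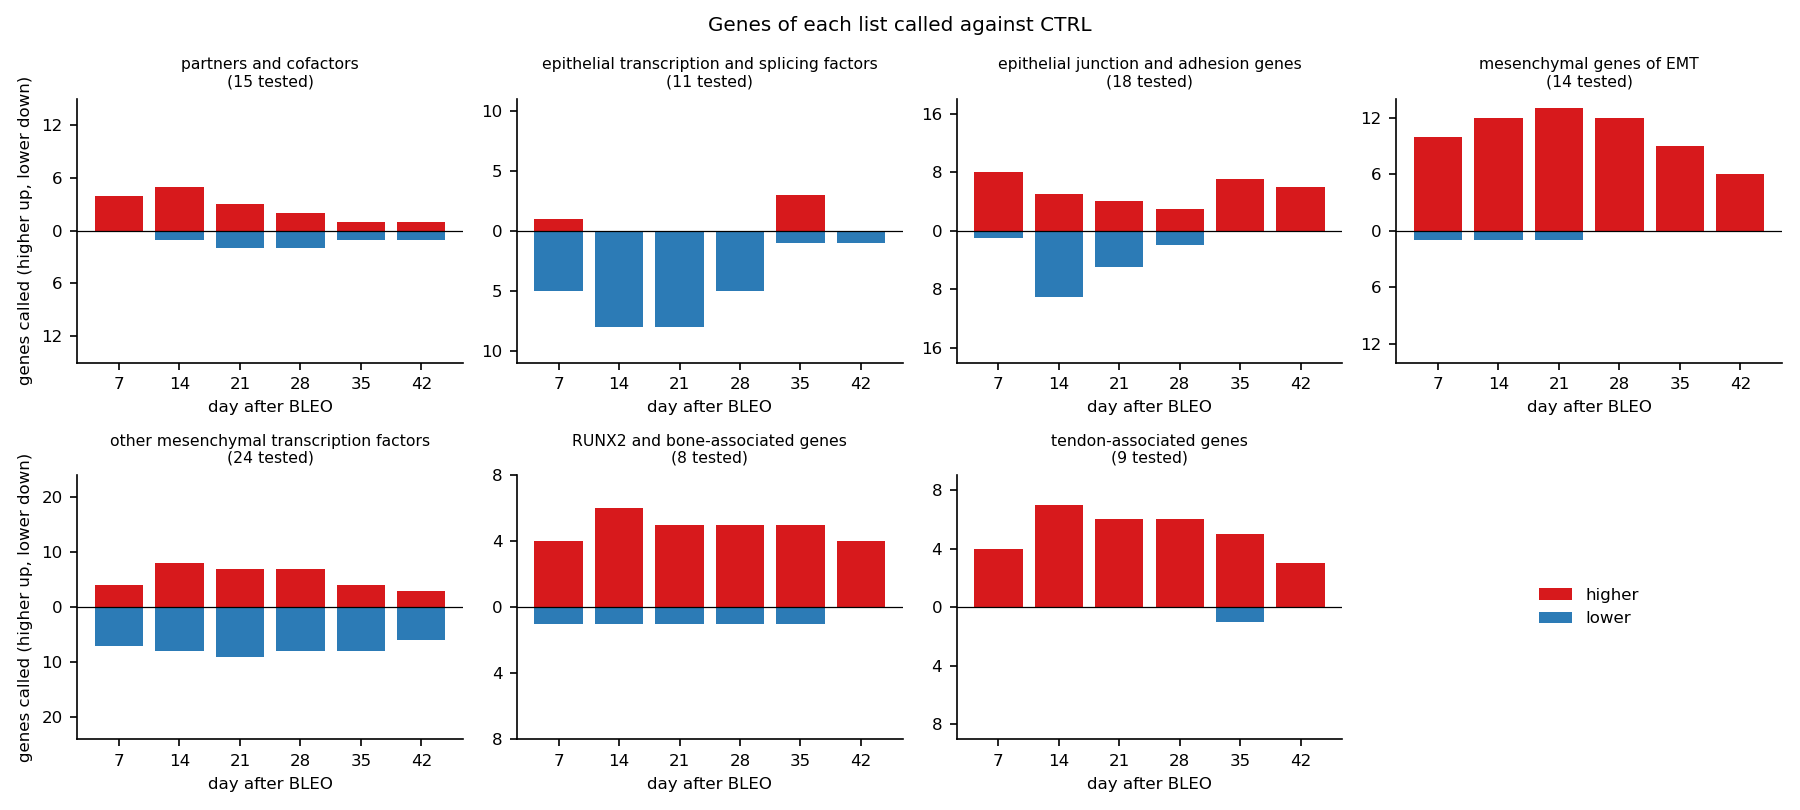
Number of genes in each of 7 lists called higher (red, upward) or lower (blue, downward) than CTRL by day after BLEO, with an adjusted p under 0.05 and axes that span the number tested. Mesenchymal genes of EMT reach 13 of 14 higher on day 21, and epithelial transcription and splicing factors reach 8 of 11 lower on days 14 and 21. Of all genes, 28.3% were higher on day 21, and 29.9% and 25.8% were lower on days 14 and 21.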

How the data were processed

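RNA was purified from the inferior lobe of 75 mice, made into stranded libraries and sequenced single-end in 75 cycles on a NextSeq instrument. Per the submitters' processing notes, reads were aligned with STAR 2.7.0f to GRCm38, and the paper's methods name the annotation of Ensembl release 96. The authors deposited raw counts per gene without normalization. The counting program and its handling of strand and of reads with several matches are not given in the sources used here. All 55536 gene identifiers were found in that annotation.

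Counts were filtered with filterByExpr, scaled by TMM and fitted in edgeR 4.0.16 (R 4.3.3) with 1 mean for each of the 7 groups of 75 mice. The quasi-likelihood F test was applied to 21 contrasts, with Benjamini-Hochberg adjustment over the 16221 genes tested and a threshold of 0.05. Tests use the spread between mice. Within a group no pair of libraries was close to identical (375 pairs, lowest chi-square per degree of freedom 3.88). In counts simulated for day 14 and CTRL over 16105 genes, 64 of 99 genes changed by a log2FC of 0.5 and 88 of 100 changed by 1 were called, as were 5 of 15906 unchanged genes. Correlations used log2 CPM (prior count 2) minus the group mean and 100000 permutations of mice within groups (numpy 2.4.6, scipy 1.17.1). Figures were drawn with matplotlib 3.10.9. Promoters were taken from RefSeq.

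The 10 members and the 22 gene lists (7 of pathways, 15 of cell type markers, 211 genes, 187 tested) were chosen with earlier results of these data known. Named genes were all members, the 2 largest increases and the 2 largest decreases of each pathway list among genes called on day 14, the 3 genes most like each member (mean log2 CPM above 1) and genes that overlap a member. A gene that this rule names is not reported here. Alternatives were DESeq2 1.42.0, library size or upper quartile scaling, no filter, a replicate block, fits limited to the 2 groups of a contrast, a robust fit, and each mouse left out in turn. Omission of day 28 mouse 10 from the correlations was chosen after seeing the data.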

Additional observations from a re-analysis of the deposited data

Results flagged for a closer look

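In 30 groups of 7 to 10 mice, the highest or lowest mouse was compared with the rest by Dixon's criterion, which chance passes in about 1 of 20 groups. It was passed 4 times. *Snai1* was 28.5 CPM in 1 CTRL mouse, with the next at 22.8. *Twist1* was 1.17 CPM in 1 day 7 mouse, with the next at 0.406, and 1.35 CPM in 1 day 42 mouse, with the next at 0.260. *Runx2* was 12.5 CPM in 1 day 7 mouse, with the next at 9.45.

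The change compared to CTRL differed between days 7 and 14 for 4 factors, by edgeR's test of the difference itself, where 9.48% of all genes were higher on day 14. The log2FC from day 7 to day 14 was 0.31 for *Zeb2* (SE 0.09, adjusted p = 0.0132), 0.54 for *Scx* (SE 0.13, adjusted p = 0.00181), 0.72 for *Prrx1* (SE 0.19, adjusted p = 0.00538) and 0.50 for *Runx2* (SE 0.17, adjusted p = 0.0328). Between days 14 and 42 it differed for 5 factors, with a log2FC of -0.87 for *Snai1* (adjusted p = 5.8e-06), 0.29 for *Snai2* (adjusted p = 0.0432), -0.71 for *Prrx1* (adjusted p = 0.00745), -0.55 for *Runx1* (adjusted p = 0.00922) and -0.65 for *Runx2* (adjusted p = 0.00645). Of all genes, 15.2% were higher and 18.8% lower on day 42 than on day 14. The *Snai2* call was lost without any of 10 mice, and the *Runx2* call from day 7 to day 14 without any of 6 mice.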

How the results depend on the processing

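No log2FC of a factor reversed its direction where either fit called it. Upper quartile factors and the robust fit moved no call of the 80 log2FC compared. The number of higher factors was 4 on day 7, 4 on day 35 and 4 on day 42 in fits of only the groups compared. On day 35 it was 2 with library size as the scaling and 2 with DESeq2, and on day 42 it was 1 without the filter. From day 14 to day 42, 0 factors were higher without the filter and 0 in a fit of only both groups, since *Snai2* was lost. Of the list genes, 23 were lower on day 7 and 13 on day 42 in fits of only the groups compared, and 11 were lower on day 28 and 5 on day 42 without the filter. These counts differed from those of the main fit, in which 21%, 19.2% and 11% of all genes were lower on days 7, 28 and 42. The causes were not tested.

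With each mouse left out in turn, higher factors numbered 1 to 3 on day 7, 5 to 6 on day 21, 4 to 6 on day 28, 1 to 2 on day 35, 1 to 2 on day 42, 3 to 5 from day 7 to day 14 and 0 to 1 from day 14 to day 42. The other counts were constant.

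Replicate numbers did not pair the mice: over 204 pairs of mice with the same number in different groups the median correlation was 0.0057, 63 exceeded 0.1, and 8 of 75 mice correlated best with their own number. With the replicate block, 3 factors were higher on day 35, 1 on day 42 and 0 from day 14 to day 42.

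Depth limits *Twist1* and *Twist2*, whose libraries held at most 35 and 27 counts on day 28. Pairs called by the correlations numbered 21 by rank, 21 with a prior count of 0.5, 21 with library size scaling and 18 without the 2 mice farthest from the median.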
